A study of Homo sapiens with 8 samples.

Results

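The question here was whether a CBFA2T3 shRNA and a constitutively active IκB kinase β, IKKβ(EE), acted additively when they were transfected together into Reh cells, a human B-precursor acute lymphoblastic leukemia line. All 8 arrays of the series enter this comparison. They are 4 groups of 2 arrays. Reh cells carried a control shRNA construct, the knockdown construct against CBFA2T3 alone, the kinase construct alone, or the last 2 together. The labels describe the knockdown and the kinase expression as transient and the 2 arrays of each group as biological duplicates. Whether a control shRNA accompanied the kinase when it was given alone is not in the labels, so the number of constructs per cell may differ between groups. The sample labels file the line under non-Hodgkin lymphoma, whereas the design text calls it leukemia-derived. All values come from 1 cell line.

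CBFA2T3 (also called MTG16 or ETO2) belongs to the ETO family of transcriptional corepressors, which bind no DNA themselves and bring histone deacetylases to DNA-bound factors in blood cells. IKKβ phosphorylates the IκB inhibitors, which are then degraded and release NF-κB dimers to the nucleus, and the EE form carries glutamates that mimic the phosphorylated activation loop. Published work on Hodgkin lymphoma links loss of CBFA2T3 together with active NF-κB to transcription of CSF1R, the macrophage growth factor receptor, in B-lineage cells, which makes the combination of the constructs the natural question for this design.

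The measure used throughout is the interaction: the effect of the shRNA in cells that also carry IKKβ(EE) (both minus IKKβ(EE) alone), minus its effect in cells that do not (shRNA minus control). It is given on the log2 scale of the signals. An interaction of 0 means that the fold changes of the single constructs multiply to the fold change of the combination, and an interaction of 1 means that the combination lies 2-fold above that level. Because each replicate number occurs once in every group, the interaction was also computed within replicate 1 and within replicate 2. A probe set, the group of short probes that reads 1 transcript, was tested if it reached log2 5 on at least 2 arrays, which left 24481 of 54675. It was called when its adjusted p (limma, Benjamini-Hochberg over all tested probe sets) was under 0.05.

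The targeted genes were checked first. CBFA2T3 read 9.22 and 9.29 (log2) with the control shRNA, 8.40 and 8.11 with the CBFA2T3 shRNA, 8.91 and 8.89 with IKKβ(EE), and 8.23 and 7.83 with both. Every array with the shRNA was below every array without it. The interaction of CBFA2T3 was 0.13 ± 0.23 (SE, n = 2 arrays in each of 4 groups) with a 95% interval from -0.41 to 0.67, so no difference in knockdown between the backgrounds was detectable at this precision. The probe set 211027_s_at of IKBKB, the gene of IKKβ, read 3.97 and 4.02 with the control shRNA, 4.43 and 3.60 with the CBFA2T3 shRNA, 10.85 and 10.39 with IKKβ(EE), and 11.45 and 11.97 with both. Its groups with and without the construct lay far apart, and both arrays with both constructs exceeded both arrays with IKKβ(EE) alone. The group with both constructs averaged 2.13-fold above IKKβ(EE) alone on this probe set. The interaction of IKBKB on it was 1.07 ± 0.42, with 0.14 in replicate 1 and 2.00 in replicate 2 and an unadjusted p of 0.0366 (limma), and it was not called. These IKBKB values include differences of 0.46 and -0.42 between shRNA and control arrays that were both under the floor. The measured excess of both constructs over IKKβ(EE) alone was 0.60 in replicate 1 and 1.58 in replicate 2. The kinase transcript as read by 211027_s_at thus moved with the comparison in both replicates, and its part in the results below was not tested. The other 2 IKBKB probe sets, 209341_s_at and 209342_s_at, gave interactions of -0.07 and -0.003. They did not show the same excess of both constructs over IKKβ(EE) alone. It was -0.16 and -0.315 in the replicates on 209341_s_at, and 0.18 and 0.06 on 209342_s_at.

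**Figure D1:**
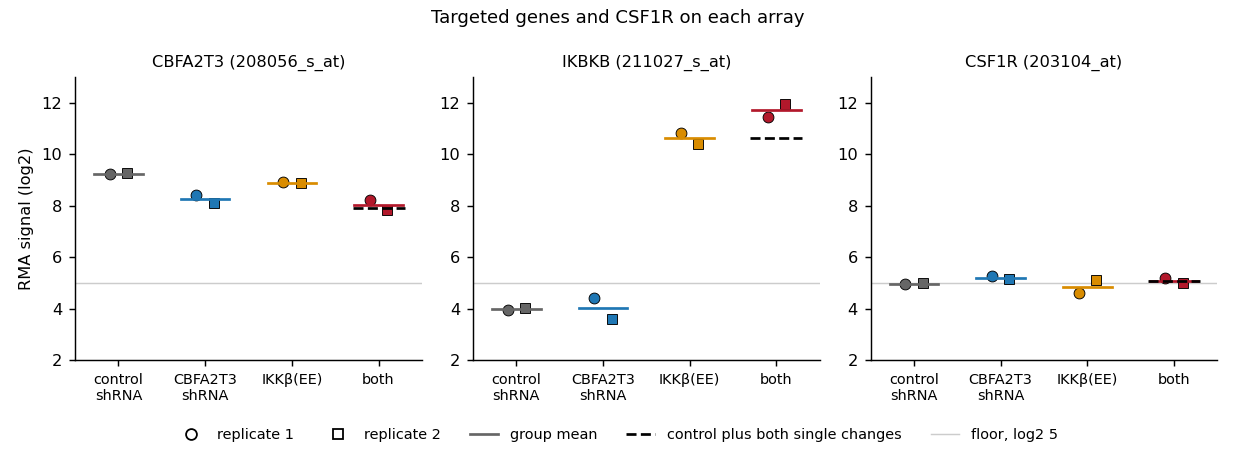
RMA signal (log2) of CBFA2T3, IKBKB and CSF1R on each of the 8 arrays, by group; circles are replicate 1, squares replicate 2, solid bars group means, dashed bars the control level plus both single changes, and the grey line the floor at log2 5. CBFA2T3 and CSF1R lie at the dashed bar, while IKBKB with both constructs (11.45 and 11.97) lies above it.

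B-lineage markers were high in all 4 groups. Of the 7 B-lineage markers measured, 6 (CD22, CD79A, CD79B, DNTT, PAX5 and EBF1) were above log2 8 in every group mean and VPREB1 was near background. The summed log2 level of these markers was 72.2 in the control group, 71.2 after the knockdown, 72.0 in kinase-expressing cells and 70.9 after both. Of the T-cell and NK-cell markers 3 of 7, of the myeloid markers 2 of 6 and of the erythroid markers 1 of 3 reached log2 5 in any group mean. The summed myeloid level ranged from 26.0 to 28.8 and the summed T-cell and NK-cell level from 34.2 to 36.9. These sums hide single markers that were higher with the shRNA. From control, shRNA and IKKβ(EE) to both, LCK had group means of 4.94, 6.99, 5.12 and 6.74. In the same order NKG7 had 4.64, 5.56, 4.64 and 5.53, whereas CD247 had 7.99, 7.93, 7.78 and 7.57. In such bulk samples a smaller share of cells of a type and less RNA per cell cannot be told apart. Arrays correlated with each other at r = 0.937 to 0.991 over the tested probe sets.

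No departure from additivity was detected for most probe sets, and a few genes departed from it strongly. Most probe sets had little single effect to add. By more than 1 log2 unit in either direction, 1.62% changed with the shRNA alone and 1.72% with IKKβ(EE) alone. For a probe set that neither construct changed, an interaction near 0 says little about how the constructs combine. Of 24481 tested probe sets, 3 had a higher level with both constructs than the single changes predicted and 0 a lower one, which is 0.0123% of those tested. At an unadjusted p under 0.05 there were 531. That is a share of the 24481 below 0.05, the share expected with no departures, so this count is no sign of further ones. The fit with replicate number as a block called the same 3 and had 1358 at that unadjusted level. The 3 are a probe set of HSPA6, an inducible HSP70 chaperone; a probe set annotated jointly to HSPA1A and HSPA1B, the near-identical genes of the major inducible HSP70; and a probe set of SLAMF7, a SLAM family receptor of lymphocytes and plasma cells. The median interaction over all tested probe sets was -0.01 and the median of its absolute value 0.12. The median standard error was 0.22, and 0.17 with the replicate block. Errors, intervals and unadjusted counts below are from the fit without the block unless the block is named. For 20997 probe sets (85.8%) the 95% interval lay within a 2-fold departure in either direction. The remaining 3484 had intervals that reached past 2-fold, so additivity was not shown for them to that degree.

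The single and combined effects behind this contrast were called far more often. They were also measured more precisely, with a median standard error of 0.15 against 0.22 for the interaction. The gap in the counts is therefore no measure of additivity. The shRNA alone gave 72 higher and 97 lower probe sets (0.69% of those tested), and the shRNA added to IKKβ(EE) gave 21 higher and 14 lower (0.143%). IKKβ(EE) alone gave 54 higher and 2 lower (0.229%), IKKβ(EE) added to the shRNA gave 201 higher and 10 lower (0.862%), and both constructs against the control gave 1146 higher and 918 lower (8.43%). These counts do not show that a gene called in 1 background and not in the other differs between them, since the interaction is the test of that difference. With replicate number as a block the shRNA alone had 1890 called probe sets and the shRNA added to IKKβ(EE) 1117, IKKβ(EE) alone had 831 and IKKβ(EE) added to the shRNA 1244, and the combination had 2878 higher and 2932 lower.

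**Figure D2:**
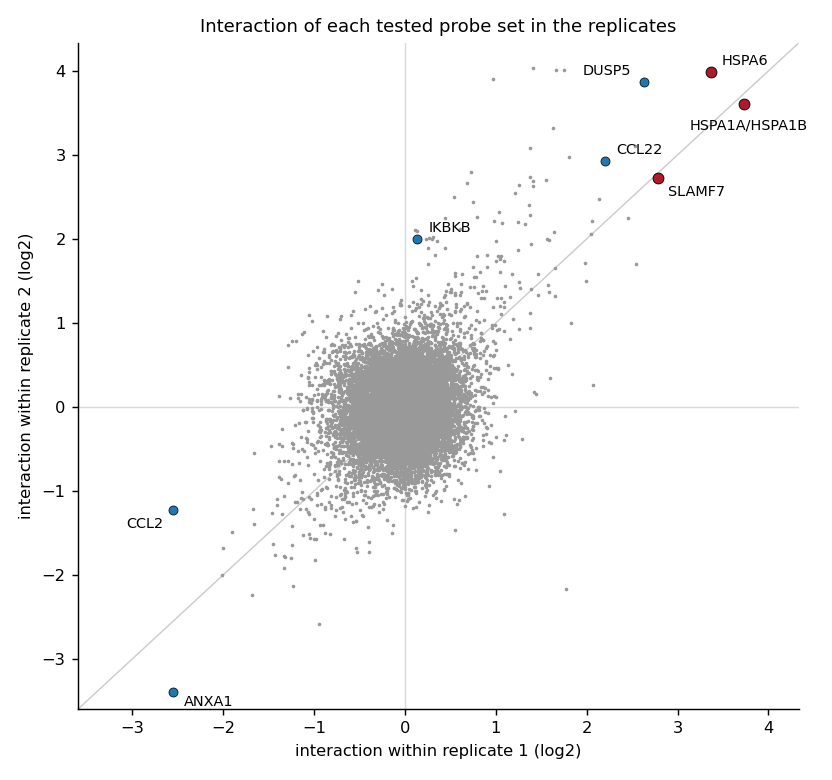
Interaction (log2) within replicate 1 (x axis) and within replicate 2 (y axis) for each of the 24481 tested probe sets; red points are the 3 called probe sets, blue points are named genes that were not called, and the diagonal marks equal values. Most points form a round cloud at 0, the called HSPA6, HSPA1A/HSPA1B and SLAMF7 probe sets lie far out near the diagonal, and IKBKB (0.14 and 2.00) lies far above it.

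HSPA6 had the highest measured interaction. Its probe set 213418_at read 4.19 and 4.56 (log2) with the control shRNA, 4.07 and 4.03 with the CBFA2T3 shRNA, 5.17 and 4.81 with IKKβ(EE), and 8.42 and 8.27 with both. The first 3 groups were near background, only the arrays with both constructs were clearly above it, and the groups did not overlap. The control level plus both single changes came to 4.67, against a measured 8.34. The interaction was 3.68 ± 0.25 (95% interval 3.10 to 4.25), with 3.37 in replicate 1 and 3.99 in replicate 2 and an adjusted p of 0.0180 (limma). Because the additive level of HSPA6 was under the floor of log2 5, its size is a difference from background: against the floor itself the combination was at least 10.2-fold higher. Of the 6 arrays without the combination 1 reached the floor. Against the control, HSPA6 differed by -0.32 with the shRNA alone (adjusted p = 0.422) and by 0.62 with IKKβ(EE) alone (adjusted p = 0.299), neither of which passed the test, and it rose by 3.97 with both (adjusted p = 0.000185). The second HSPA6 probe set, 117_at, read 4.40 and 4.09, 4.23 and 4.31, 4.61 and 4.60, and 6.49 and 6.87 in the same order of groups. It showed the same order of arrays at a lower level, with an interaction of 2.05 ± 0.23 and nearly equal values of 2.04 and 2.06 in the replicates, but its adjusted p of 0.125 missed the threshold.

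The joint HSPA1A and HSPA1B probe set 200799_at read 2.72 and 2.87 with the control shRNA, 2.74 and 3.21 with the CBFA2T3 shRNA, 3.52 and 3.86 with IKKβ(EE), and 7.27 and 7.80 with both. Again only the arrays with both constructs stood above background. Its interaction was 3.67 ± 0.33 (95% interval 2.91 to 4.43), with 3.73 and 3.61 in the replicates and an adjusted p of 0.0448. It was tested only because the arrays with both constructs passed the floor, which 0 of the other 6 reached, and against the floor the combination was at least 5.81-fold higher. The array cannot assign this signal to HSPA1A or to HSPA1B. A further probe set of these genes, 202581_at, was already high without the combination: it read 8.89 and 8.21, 9.17 and 8.92, 8.87 and 8.78, and 10.74 and 10.85 in the same order. Its interaction was 1.47 ± 0.31 with 1.58 and 1.36 in the replicates and an unadjusted p of 0.00155, and it was not called. The probe set 200800_s_at, annotated to HSPA1L, HSPA1A and HSPA1B, gave 1.40 ± 0.29 and was not called either. All 5 of these inducible HSP70 probe sets thus had both replicate interactions above 1, on a background that ranged from log2 2.80 to 8.55 in the control mean. The size of the interaction differed between probe sets of the same genes, so its fold value depends on the probe set read.

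**Figure D3:**
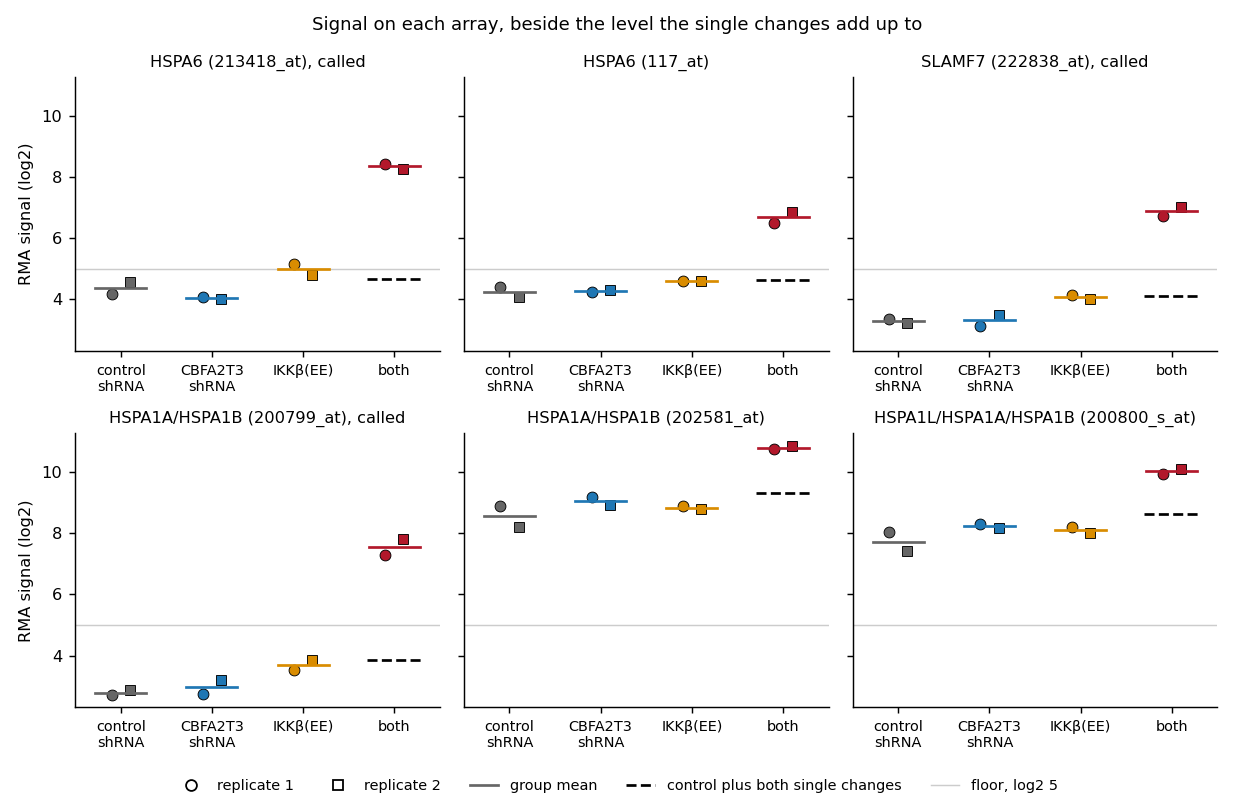
RMA signal (log2) on each of the 8 arrays for the HSPA6, HSPA1A/HSPA1B and SLAMF7 probe sets, by group; circles are replicate 1, squares replicate 2, solid bars group means, dashed bars the control level plus both single changes, and the grey line the floor at log2 5. In all 6 panels both arrays with both constructs lie above every other array and above the dashed bar. The panels were chosen as the called probe sets and further HSP70 probe sets. How many of all tested probe sets show this order was not counted.

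Genes of the HSP70 class are switched on by heat shock factor, which binds heat shock elements made of GAA units in alternating orientation. The 250 bases before the start of HSPA6, HSPA1A and HSPA1B are shown because the HSPA6 and the joint HSPA1A and HSPA1B probe sets were called. The CCL22 window is set beside them as the highest of the NF-κB targets described below. The windows are RefSeq sequences of build GRCh38.p14, all on the plus strand: chr1:161524290-161524539 for HSPA6, chr6:31815293-31815542 for HSPA1A, chr6:31827488-31827737 for HSPA1B and chr16:57358533-57358782 for CCL22. Capitals mark heat shock units facing each other or apart (GAANNTTC or TTCNNGAA) in the first 3, and the NF-κB consensus in CCL22.
HSPA6: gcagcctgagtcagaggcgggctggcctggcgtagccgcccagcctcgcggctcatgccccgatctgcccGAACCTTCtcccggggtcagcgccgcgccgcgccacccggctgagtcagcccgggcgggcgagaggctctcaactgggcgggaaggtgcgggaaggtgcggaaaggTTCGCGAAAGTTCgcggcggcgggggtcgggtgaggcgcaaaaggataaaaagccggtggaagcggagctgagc
HSPA1A: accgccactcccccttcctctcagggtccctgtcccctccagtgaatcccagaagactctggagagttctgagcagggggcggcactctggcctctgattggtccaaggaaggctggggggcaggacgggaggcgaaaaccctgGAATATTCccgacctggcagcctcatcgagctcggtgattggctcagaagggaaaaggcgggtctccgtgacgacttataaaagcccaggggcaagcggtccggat
HSPA1B: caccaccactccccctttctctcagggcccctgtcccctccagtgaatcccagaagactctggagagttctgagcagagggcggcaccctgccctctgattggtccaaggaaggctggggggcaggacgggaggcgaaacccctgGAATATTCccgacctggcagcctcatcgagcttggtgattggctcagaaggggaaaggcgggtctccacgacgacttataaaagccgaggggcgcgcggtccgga
CCL22: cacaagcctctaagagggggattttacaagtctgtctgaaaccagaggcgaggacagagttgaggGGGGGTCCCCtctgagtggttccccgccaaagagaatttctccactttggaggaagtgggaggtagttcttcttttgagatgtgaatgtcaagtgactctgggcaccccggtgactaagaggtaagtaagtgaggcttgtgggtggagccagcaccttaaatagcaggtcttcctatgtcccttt
HSPA6 holds the heat shock element in its 3-unit form (TTCNNGAANNTTC, which contains overlapping 2-unit matches) starting 74 bases before the gene start, and a separate 2-unit match 180 bases before it. HSPA1A and HSPA1B hold a single 2-unit match each, 106 and 105 bases before the start, in windows that match at 94.4% of 249 positions when offset by 1 base. Searched on both strands, the 3-unit form occurs in 0.441% and a 2-unit form in 11.6% of the 35116 windows of the table. CCL22 holds the NF-κB consensus 185 bases before its start, as do 5.21% of all windows. Windows were found for 9 of the 12 genes that make up the called probe sets and the nearest uncalled genes. These 9 genes have 16 windows, so a gene with several windows can match more often than the share per window. Among the 9, a 2-unit heat shock match was found in 6, the NF-κB consensus in CCL22 only, the interferon-stimulated response element in FRMD3 only (3.02% of all windows), the E-box CAGCTG in FRMD3 only (14% of all windows), and the RUNX motif TGTGGT in 0 (11% of all windows). These matches describe the letters and show no binding, and the heat shock motifs were searched after HSPA6 was seen to be called.

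Other chaperone genes had smaller interactions, most of them above 0. Of 29 heat shock and chaperone genes tested, HSPA6 was the only member called, and the median interaction of the list was 0.18 against 0.00 over all 11449 genes, each read on 1 probe set. The interaction was above 0 in 26 of the 29 (89.7%, against 49.6% of all genes). Against the control, the list median was -0.007 with the shRNA alone, -0.13 with IKKβ(EE) alone and 0.001 with both constructs. A positive interaction in this list is therefore not in itself a rise over the control. Both replicate interactions were above 0 in 21 of the 29 and below 0 in 1, against 27.3% and 26.6% of all genes. HSPH1, an HSP110 co-chaperone, had 0.57 ± 0.29; DNAJB4, an HSP40 co-chaperone, 0.54 ± 0.28; HSPB1, the small heat shock protein HSP27, 0.52 ± 0.51; and DNAJB1, an HSP40 partner of HSP70, 0.77 and 0.38 on its probe sets. None of these interactions passed the test, although DNAJB4 rose by 1.17 with both constructs against the control (adjusted p = 0.0197). The constitutive and organelle members HSPA2, HSPA4, HSPA5, HSPA9, HSPA13 and HSPA14 lay between -0.06 and 0.45 on all their tested probe sets. The highest of them was HSPA5, the endoplasmic reticulum chaperone, with 0.45 ± 0.24. HSF1, the heat shock factor gene itself, had -0.15 ± 0.18 on 202344_at. On 213756_s_at of HSF1 the direction was opposite: the shRNA effect was 0.13 and -0.40 in the replicates alone and 0.28 and 0.04 with IKKβ(EE). The lowest list member was SERPINH1, a collagen chaperone, with -0.16 ± 0.24. The list median was 0.02 without replicate 2 of IKKβ(EE) and 0.33 without replicate 1 of that group.

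SLAMF7 was the third call. Its probe set 222838_at read 3.35 and 3.23 (log2) with the control shRNA, 3.15 and 3.51 with the CBFA2T3 shRNA, 4.16 and 4.01 with IKKβ(EE), and 6.74 and 7.02 with both. The control and shRNA arrays overlapped near background, the IKKβ(EE) arrays stood slightly above them, and both arrays with both constructs lay far above all others. The interaction was 2.76 ± 0.23 (95% interval 2.21 to 3.30), with 2.78 and 2.73 in the replicates and an adjusted p of 0.0448. SLAMF7 too passed the filter only through the arrays with both constructs (0 of the other 6 reached the floor), and against the floor the combination was at least 3.68-fold higher. The shRNA changed SLAMF7 by 0.04 without IKKβ(EE) (adjusted p = 0.938) and raised it by 2.80 with IKKβ(EE) (adjusted p = 0.00255). The other 2 SLAMF7 probe sets stayed below the floor and gave 0.50 and 0.45 when tested without it. Other SLAM family members did not follow: SLAMF1 had -0.26, CD48 -0.21, CD84 -0.46 and LY9 -0.20 on the probe set of each that passed the floor.

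These calls rest on 2 arrays a group. When each of the 8 arrays was left out in turn, HSPA6 was called in 2 of the 8 fits without a block and 6 of 8 with it, the joint HSPA1A and HSPA1B probe set in 1 and 6, and SLAMF7 in 1 and 2, while their values stayed between 3.40 and 3.96, 3.40 and 3.93, and 2.58 and 2.93. On the IKBKB probe set 211027_s_at the signal was higher with both constructs than with IKKβ(EE) alone in both replicates. The other IKBKB probe sets did not show the same excess, as given above. The part of the kinase level in these calls was not tested.

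The genes that came next by the size of their test statistic, with no adjusted p under 0.05, held amplified genes, dampened genes and DOP1B, in which the combination went against the sum of the single changes. Among the amplified, CCL22, the CCR4 ligand of B cells and Hodgkin cells, read 4.44 and 4.26 with the control shRNA, 4.25 and 4.34 with the CBFA2T3 shRNA, 4.62 and 4.47 with IKKβ(EE), and 6.64 and 7.47 with both. Like HSPA6 it was at background in 3 groups and above it in the fourth, and its interaction was 2.56 ± 0.35 (adjusted p = 0.334). CCL22 and FRMD3 also reached the floor only with both constructs, so their interactions are differences from background. FRMD3, a FERM domain protein, read 3.82 and 4.07, 3.87 and 4.10, 3.91 and 4.01, and 5.94 and 5.76, an interaction of 1.85 ± 0.21 (adjusted p = 0.125, and 0.0536 with the replicate block), while another probe set of it gave 0.86 ± 0.21. On a further FRMD3 probe set, 242600_at, the shRNA effect was -0.41 and 0.05 in the replicates alone and 0.40 and -0.12 with IKKβ(EE). The long noncoding RNA NR2F1-AS1 differed from CCL22 and FRMD3 in responding to the kinase alone. It read 5.06 and 4.64, 4.39 and 4.43, 7.92 and 7.72, and 9.39 and 9.99, so it rose by 2.97 with IKKβ(EE) alone (adjusted p = 0.00458) and its interaction was 2.31 ± 0.31 (adjusted p = 0.334). These NR2F1-AS1 values are from 229014_at, on which the shRNA effect with IKKβ(EE) was 1.47 and 2.27 in the replicates. That effect was smaller on its other probe sets, with 0.28 and 0.17 on 1556695_a_at and 0.03 and 0.40 on 1556696_s_at. NR2F1, the neighbouring nuclear receptor gene, had 1.21 ± 0.31 and was not called.

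In the dampened genes the combination stayed below the sum of the single changes. CCL2, the monocyte chemoattractant, read 3.12 and 3.43 with the control shRNA, 3.41 and 2.71 with the CBFA2T3 shRNA, 6.14 and 5.85 with IKKβ(EE), and 3.88 and 3.90 with both. It rose by 2.72 with the kinase alone (adjusted p = 0.00938) and was 0.61 above the control with both (adjusted p = 0.148). Its interaction was -1.89 ± 0.33 (adjusted p = 0.594), although the shRNA lowered it in cells with IKKβ(EE) (-2.11, adjusted p = 0.0298). ANXA1, the phospholipid-binding annexin A1, had the lowest interaction of all tested probe sets, -2.97 ± 0.58 (adjusted p = 0.818, and 0.0536 with the replicate block). It read 3.68 and 3.92, 5.83 and 7.04, 7.14 and 7.71, and 6.74 and 7.45, so each construct alone raised it (2.64 and 3.63, adjusted p = 0.0478 and 0.0251) and the combination, at 3.30 over the control, sat among the single effects. PYHIN1, an interferon-inducible HIN-200 protein, had the same shape, with changes of 1.58 and 1.53 from the single constructs, 1.95 from both, and an interaction of -1.17 ± 0.26. BCL6B, a repressor related to BCL6, had 1.67 with IKKβ(EE), 0.56 with both and an interaction of -1.44 ± 0.33. DOP1B, the gene that went against the sum, had 0.75 with the shRNA, 0.06 with IKKβ(EE), -0.18 with both, and an interaction of -0.99 ± 0.18. The adjusted p of these interactions was 1.00 for PYHIN1, 1.00 for BCL6B and 0.645 for DOP1B, and the single changes of BCL6B and DOP1B did not pass the test either. Other probe sets of ANXA1 and BCL6B did not show the same change. The shRNA changed ANXA1 233011_at by -0.20 and 0.13 in the replicates alone, and by 0.08 and 0.37 with IKKβ(EE). With IKKβ(EE) it changed BCL6B 1554625_at, 242148_at and 243825_at by between -0.28 and 0.33, against -1.05 and -1.17 on 228311_at. It changed PYHIN1 216748_at by 0.41 and 0.33 alone and by 0.10 and -0.26 with IKKβ(EE). For DOP1B 215219_at these were 0.004 and 0.31, and 0.07 and -0.44.

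**Figure D4:**
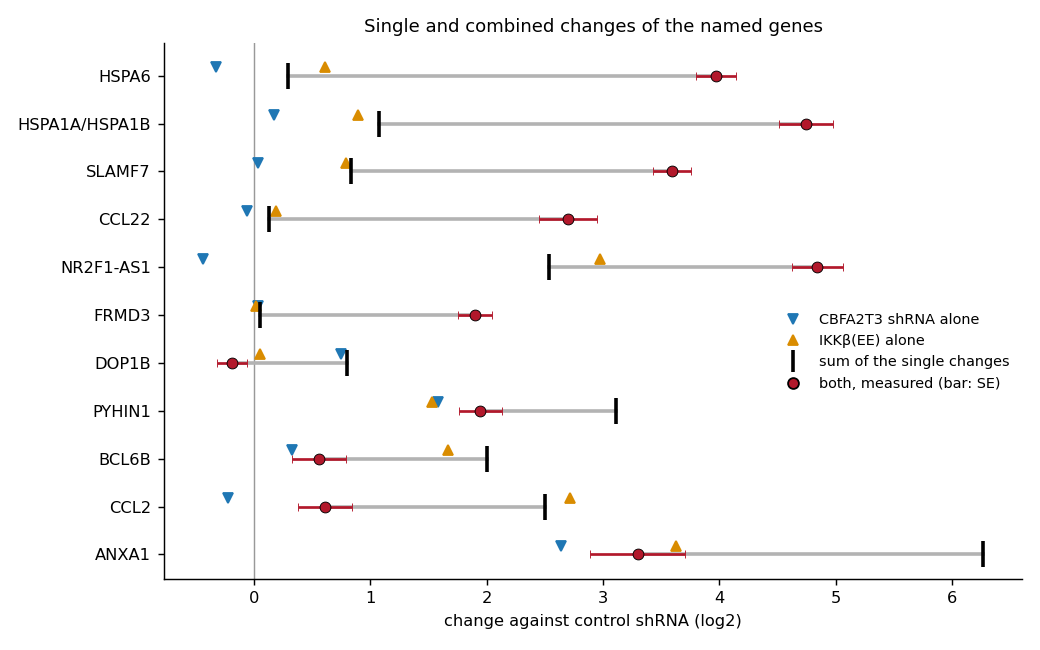
Change against the control shRNA (log2) for the called and the nearest uncalled genes: blue triangles are the CBFA2T3 shRNA alone, orange triangles IKKβ(EE) alone, black ticks the sum of both single changes, and red points with standard error bars the measured change with both constructs. HSPA6, HSPA1A/HSPA1B, SLAMF7, CCL22, NR2F1-AS1 and FRMD3 lie right of the tick, and ANXA1, CCL2, BCL6B, PYHIN1 and DOP1B left of it.

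Over all tested probe sets the interactions of replicate 1 and replicate 2 correlated at r = 0.24 across probe sets, which are not independent, and 52.6% had the same sign. The interaction exceeded 1 in both replicates for 63 probe sets and was under -1 in both for 36. Of the 63, 54 were amplified (the combination went further than the sum of the single changes), 2 dampened and 7 overturned (the combination went against the sum). Of the 36, 32 were dampened, 4 overturned and 0 amplified. Most of the 63 were near background without the combination: 46 had a control mean under the floor of log2 5, and for 27 the control, shRNA and IKKβ(EE) means were all under it. The part of this low starting signal in the amplification was not tested. The floor also lets a probe set in through the 2 arrays with both constructs alone, which favours amplified members. The classes and the interaction use the same arrays, so the class counts are a description only.

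NF-κB target genes leaned above additivity without a call. Of 44 tested, 0 were called, the median interaction was 0.35, and both replicate interactions were above 0 in 26 and below 0 in 6. At an unadjusted p under 0.05 there were 9 higher members, against 1.16% of all genes, and 1 lower member, against 0.742%. The 9 were CCL22, CCR7 (2.13 ± 0.34), CCL20 (2.12 ± 0.41), TRAF1 (1.49 ± 0.54), TNFAIP2 (1.37 ± 0.24), IL6 (0.93 ± 0.27), GADD45B (0.78 ± 0.25), IL15RA (0.73 ± 0.30) and TNF (0.67 ± 0.24), and the lower member was CCL2. CCR7, the lymph node homing receptor, had group means of 3.87, 3.56, 7.14 and 8.95 from control to both. CCL20, the CCR6 ligand, had 3.41, 4.15, 3.97 and 6.83, and only its mean with both constructs was above the floor. Precision was limited here: the 95% interval lay within 2-fold for 5 of the 44, against 87.8% of all genes. The list median was -0.08 without replicate 2 of the group with both constructs and 0.91 without its replicate 1. The IKBKB probe set 211027_s_at was itself higher with both constructs, as given above.

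The NF-κB pathway genes themselves (subunits, inhibitors and upstream kinases) had a median of 0.17 over 31 tested, 0 called, 16 with both replicate interactions above 0 and 4 with both below. The highest was NFKBID, an atypical nuclear IκB protein, with 0.57 ± 0.30, and the lowest TRAF5, a receptor adaptor, with -0.17 ± 0.28. CHUK, the gene of IKKα, at 0.37 ± 0.15 was the only member with an unadjusted p under 0.05. The median was -0.08 without replicate 2 of the group with both constructs. The 33 chemokines, cytokines and receptors overlap with the targets and had a median of 0.24 (0.73 and 0.06 without replicate 1 and 2 of the group with both constructs), 0 called, and 7 higher and 1 lower at an unadjusted p under 0.05. IL23A, the specific subunit of interleukin-23, was added to the targets above with 2.47 ± 0.61. Its mean rose from 4.98, 5.24 and 5.62 in the first 3 groups to 8.37 with both.

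Genes linked to Hodgkin lymphoma had a median of 0.21 over 37 tested, with 0 called and 17 above and 7 below 0 in both replicates. Their 5 members at an unadjusted p under 0.05 were CCL22, CCR7, TRAF1, CFLAR (1.27 ± 0.54), the caspase-8 inhibitor c-FLIP, and CD274 (0.97 ± 0.36), the checkpoint ligand PD-L1. The lowest was LGALS1, galectin-1, with -1.01 ± 1.05. The median was 0.49 without replicate 1 of the group with both constructs and -0.11 without its replicate 2. CSF1R stayed at the edge of detection: it read 4.95 and 5.004 with the control shRNA, 5.28 and 5.15 with the CBFA2T3 shRNA, 4.61 and 5.11 with IKKβ(EE), and 5.18 and 5.02 with both. The shRNA arrays lay above the control and IKKβ(EE) arrays, and the arrays with both constructs lay above the controls and overlapped with the other 2 groups, all within less than 1 log2 unit. Its interaction was 0.01 ± 0.25 (95% interval -0.57 to 0.58), with 0.25 and -0.23 in the replicates, so a departure from additivity was not detectable for CSF1R at this precision.

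Immediate early genes spread widely around a median of 0.06 (41 tested, 0 called), which was 0.42 without replicate 1 and -0.26 without replicate 2 of the group with both constructs and was also below 0 without replicate 2 of the control, replicate 1 of the shRNA or replicate 1 of IKKβ(EE). At the top stood DUSP5, the ERK phosphatase, which read 3.67 and 3.49, 3.31 and 3.31, 3.96 and 4.16, and 6.24 and 7.85 from control to both. Its interaction of 3.25 ± 0.61 (adjusted p = 0.742) was the third largest in value, but its arrays with both constructs lay far apart. Every DUSP5 array without the combination was under the floor. It was therefore tested only through the arrays with both constructs, and its size is a difference from background. At the bottom stood FOS, the AP-1 subunit, with 3.19 from the shRNA alone, 1.40 from IKKβ(EE), 3.04 from both and an interaction of -1.55 ± 0.75. The other members with an unadjusted p under 0.05 were IER3 (1.12 ± 0.39) and GADD45B, both induced by stress and NF-κB.

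Interferon response genes had a median of 0.06 over 55 tested, with 0 called. EPSTI1, an interferon-induced gene, was highest with 1.42 ± 0.53, GBP2, an interferon-induced GTPase, had 1.38 ± 0.51, and RSAD2, the antiviral enzyme viperin, was lowest with -1.16 ± 0.49. RSAD2 read 6.84 and 6.96, 9.01 and 10.15, 9.49 and 8.98, and 10.60 and 10.91, so it was highest with both constructs and yet below the product of the single folds. On unlogged signals its interaction was positive, so the sign for RSAD2 depends on whether changes are taken to add or to multiply. MHC class I presentation genes had a median of 0.09 over 20 tested, all with intervals within 2-fold, from HLA-E (-0.15 ± 0.26) to ERAP2, a peptide-trimming aminopeptidase (0.26 ± 0.18). MHC class II genes had a median of -0.16 over 17, with 1 above and 9 below 0 in both replicates. HLA-DQA1 was lowest with -0.95 ± 0.71 after a change of 7.19 with IKKβ(EE) alone and 7.38 with both, and CIITA, the class II transactivator, highest with 0.05 ± 0.25. No MHC gene had an unadjusted p under 0.05.

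B-lineage genes lay slightly below additivity, with a median of -0.14 over 40 tested, 0 called, and 4 above and 22 below 0 in both replicates. The exception was MS4A1, which encodes CD20. It read 2.24 and 2.52 with the control shRNA, 2.54 and 2.28 with the CBFA2T3 shRNA, 6.86 and 7.72 with IKKβ(EE), and 8.97 and 10.45 with both. The shRNA alone left it at background, and its interaction was 2.39 ± 0.65 (unadjusted p = 0.00712, not called). CD72, an inhibitory B-cell receptor, was lowest with -0.83 ± 0.28. Genes of other lineages were sparse: 10 T-cell and NK-cell genes had a median of -0.18, from GATA3 (-0.99 ± 0.70) to LAT (0.28 ± 0.22), 9 myeloid genes -0.01, from ITGAM (-0.86 ± 0.55) to NCF4 (0.19 ± 0.18), and 7 erythroid and megakaryocyte genes 0.04, from AHSP (-0.23 ± 0.17) to HBB (0.22 ± 0.23). Progenitor genes had a median of 0.05 over 17. MN1, a leukemia-associated coactivator, was highest with 1.08 ± 0.25, having changed by -1.77 with the shRNA, -1.37 with IKKβ(EE) and -2.06 with both. For MN1 the additive level of 3.90 lay under the floor and the measured mean of 4.98 was at it, and the part of this low signal in the value was not tested. KIT, the stem cell factor receptor, was lowest with -0.37 ± 0.27. In these 4 lists MN1 alone had an unadjusted p under 0.05, and no gene was called.

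The ETO family and its corepressor partners had a median of -0.01 over 29 tested, from ID2, an inhibitor of E proteins (-0.54 ± 0.46), to RUNX2 (1.48 ± 0.64), which read 2.64 and 3.20, 3.25 and 4.56, 3.96 and 4.39, and 6.22 and 7.06 (unadjusted p = 0.0507). RUNX2 too was under the floor on every array without the combination, so its interaction is a difference from background. Genes of the BCL2 family and death receptors had a median of 0.04 over 32, with CFLAR highest and FAS, the CD95 death receptor, lowest (-0.53 ± 0.57). The p53 targets had 0.08 over 27, with PLK3, a stress kinase, highest (0.47 ± 0.36). None of these 3 lists held a call, and CFLAR was their only member with an unadjusted p under 0.05.

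In the growth and metabolic lists no gene was called, with list medians between -0.14 and 0.21. The 95% interval lay within 2-fold for 19 of 35 glycolysis and hypoxia genes, 23 of 38 stress response genes and 26 of 36 MYC and ribosome biogenesis genes, against 87.8% of all genes, so additivity was not shown to that degree for many of them. Genes of MYC and ribosome biogenesis had a median of 0.21 over 36 tested, with 27 above and 0 below 0 in both replicates, from PES1 (-0.01 ± 0.35) to RRP12 (0.58 ± 0.34). That median was -0.04 without replicate 2 of IKKβ(EE) and 0.02 without replicate 1 of the control. Mitosis genes had -0.14 over 48, with 4 above and 29 below 0 in both replicates and 47 intervals within 2-fold, from KIF2C (-0.37 ± 0.22) to NEK2 (0.08 ± 0.24), and 0.04 without replicate 2 of the group with both constructs. Genes of DNA replication had -0.05 over 51 (-0.35 without replicate 1 and 0.24 without replicate 2 of the group with both constructs), from POLA2 (-0.28 ± 0.30) to POLE (0.18 ± 0.23). Genes of the integrated stress and unfolded protein response had -0.13 over 38 (-0.28 in replicate 1 and 0.04 in replicate 2), with TRIB3 lowest (-0.86 ± 0.92) and HSPA5 highest. Cholesterol genes had -0.09 over 24, from SREBF1 (-0.44 ± 0.23) to SQLE (0.17 ± 0.32), and glycolysis and hypoxia genes -0.01 over 35, from ADM (-0.72 ± 0.68) to PFKFB3 (0.34 ± 0.26). The 15 reference genes had 0.02, all with intervals within 2-fold, from SDHA (-0.23 ± 0.16) to HPRT1 (0.17 ± 0.16). In these lists 0 members had an unadjusted p under 0.05.

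**Figure D5:**
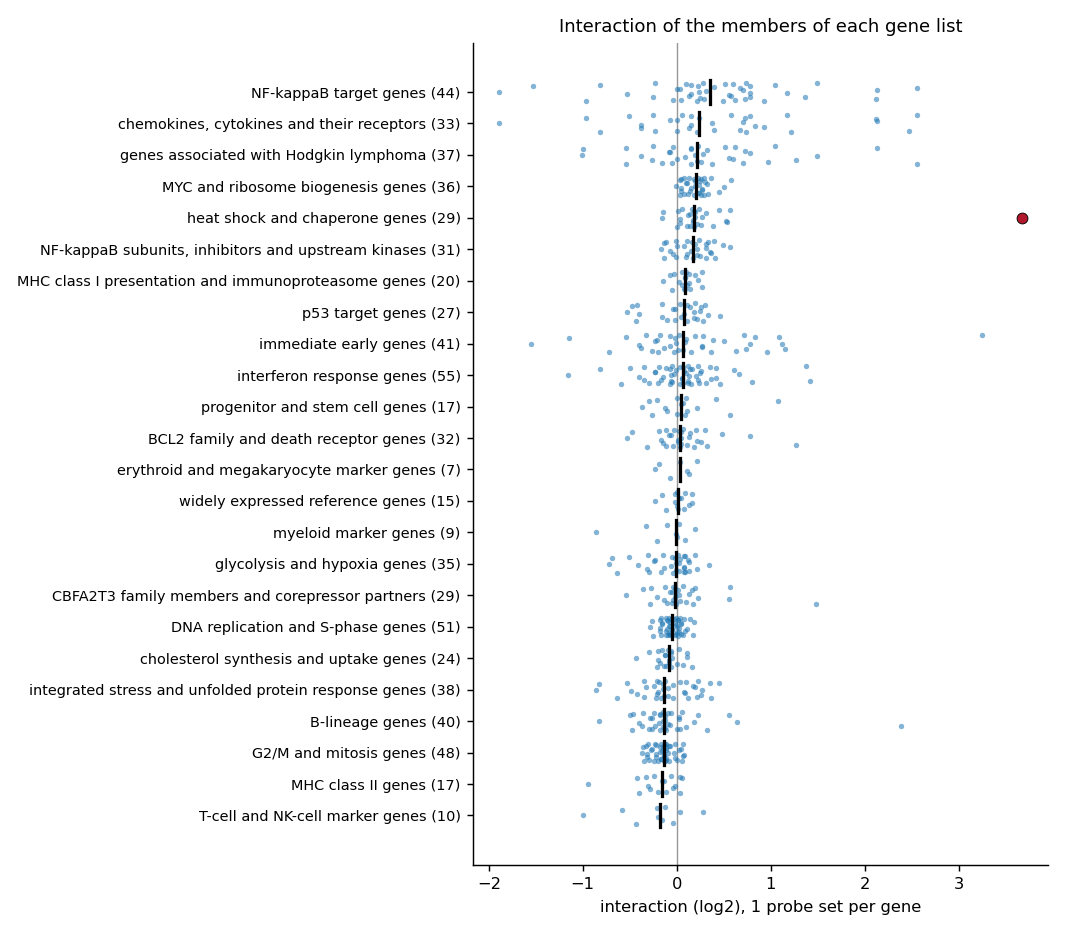
Interaction (log2) of the tested members of each of the 24 gene lists, 1 probe set per gene, with the number tested in brackets; each point is a gene, the black bar the list median, and the red point the called member. HSPA6 (3.68) is the only called point, and the NF-κB target, chemokine and immediate early lists spread most widely.

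The standard deviation of the interactions over all tested probe sets was 0.29 in replicate 1 and 0.36 in replicate 2. Each of these uses 1 array of every group, so they do not single out the group with both constructs. The fits that left out 1 array of that group differed from each other. Without replicate 1 of that group 24 probe sets were called, all higher, 3 of them the called ones and 21 further ones that included CCL22 (2.98), DUSP5 (4.05), IL23A (3.28), MMP10 (4.10), a secreted metalloproteinase, and CCR7 (2.47). Without its replicate 2 there were 0, with 696 at an unadjusted p under 0.05, and 10 with the replicate block. These genes were named after their values were seen. The IKBKB signal on 211027_s_at was also higher in replicate 2 of that group (11.97) than in replicate 1 (11.45).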

How the data were processed

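Total RNA of the 8 cultures was hybridised to Affymetrix U133 Plus 2.0 arrays. The deposited log2 values are RMA signals (background correction, quantile normalisation and summary per probe set), per the submitters' processing notes; the version is not given in the sources used here. Quantile normalisation forces arrays to a common distribution, so a change shared by most transcripts is not visible, and arrays give no read depth: their number limits the precision.

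Control probe sets (62) and those under log2 5 on all but at most 1 array (30132) were left out. A model with 1 mean per group was fitted over all 8 arrays with limma 3.58.1 (R 4.3.3), with moderated variances, 4 residual degrees of freedom and Benjamini-Hochberg adjustment, and was tested on simulated data. Gene symbols came from the platform annotation, and probe sets with several symbols name no gene. Lists used 1 probe set per gene, that with the highest mean. Up to 15 called genes per direction were to be named, or else the 5 per direction with the largest absolute t, plus CBFA2T3, IKBKB, CSF1R and each list's highest and lowest member. The question and the lists were chosen with earlier results of these data known, so lists were described and not tested. Other p-values are those of the named fit, two-sided.

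Replicate numbers come from the sample titles. Arrays of the same number deviated together (r = 0.344 to 0.577 between all pairs of groups), so they were taken to pair the arrays, and the fit was repeated with the replicate as a block. Alternatives were other floors, scalings, moderation, array weights, 1 probe set per gene, unlogged signals and leaving out each array.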

Additional observations from a re-analysis of the deposited data

Results flagged for a closer look

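The 3 called results stood out because the effect of the CBFA2T3 shRNA differed between cells with and without IKKβ(EE) by the test of that difference itself (limma). They were the HSPA6 probe set 213418_at, with an interaction of 3.68 on the log2 scale, the joint HSPA1A and HSPA1B probe set 200799_at, with 3.67, and the SLAMF7 probe set 222838_at, with 2.76. All were higher with both constructs than the single changes predicted, in both replicates, which are the arrays of the test. All passed the filter only through the arrays with both constructs. Of the other 6 arrays, 1 reached the floor for HSPA6 and 0 for 200799_at and SLAMF7. On 1 of the IKBKB probe sets, 211027_s_at, the signal was also higher with both constructs than with IKKβ(EE) alone. The part of the kinase level in these calls was not tested.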

How the results depend on the processing

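With 2 arrays a group, 24481 tested probe sets and 4 residual degrees of freedom, the median 95% interval of an interaction reached 0.51 to either side, before adjustment over all probe sets. The adjusted limit lies far higher, since CCL22 (2.56), DUSP5 (3.25) and ANXA1 (-2.97) were not called. The count of 3 called probe sets was 3 with the floor at log2 6, array weights, cyclic loess, equal array medians or the replicate block, and 2 with 1 probe set per gene. It was 6 with no floor and 1 with trend and robust moderation, under which SLAMF7 (2.76) and 200799_at (3.67) each had an adjusted p of 0.0593. Leaving out 1 array gave 0 to 24 calls, and 0 to 57 with the replicate block. The values then ranged from 3.49 to 3.86 for HSPA6 (3.40 to 3.96 with the block), from 3.40 to 3.93 for 200799_at (3.52 to 3.81) and from 2.58 to 2.93 for SLAMF7 (2.58 to 2.93). The replicate block moved the single-construct counts to 1890 (shRNA alone), 1117 (shRNA with IKKβ(EE)), 831 (IKKβ(EE) alone) and 1244 (IKKβ(EE) with the shRNA), and leaving out 1 array moved them to between 0 and 297, 3 and 399, 5 and 214, and 38 and 836. The block changed no call of the interaction.

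Among 57 named probe sets and 1413 values, 1303 kept their direction and side of the threshold, 32 lost a call, 13 gained one and 65 changed sign. Values on unlogged signals had no test, so among the kept values they count by direction alone. The causes of the changes were not tested, beyond the smaller number of arrays in the fits that left one out. On unlogged signals the interaction of CSF1R was -0.701, of IKBKB 209342_s_at 1.04, of RSAD2 420.0, of HLA-DQA1 573.2, of LGALS1 332.2 and of FAS 96.5 signal units, each against the sign on the log2 scale. The scales differ in what counts as additive: changes of signal add on the unlogged scale, whereas adding log2 changes multiplies the folds. IKBKB 209342_s_at was also 0.018 with cyclic loess and 0.0049 with equal array medians. With 1 array left out, with or without the replicate block, signs changed for interactions near 0 or of wide error. The range was -0.069 to 0.33 for CBFA2T3, -0.28 to 0.30 for CSF1R, -0.28 to 0.14 for IKBKB 209341_s_at and -0.25 to 0.24 for IKBKB 209342_s_at. It was -0.19 to 0.29 for CIITA, -1.09 to 0.035 for FAS, -0.045 to 0.48 for HBB, -0.32 to 0.025 for HLA-E and -0.16 to 0.31 for NEK2. It was -0.29 to 0.26 for PES1, -0.59 to 0.024 for POLA2, -0.042 to 0.40 for POLE, -0.36 to 0.045 for SERPINH1, -0.21 to 0.54 for SQLE and -0.40 to 0.072 for TRAF5.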
